A study of Mus musculus with 4 samples.

Results

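The genes described here are 43 mouse genes of glycolysis and of the response to low oxygen. Their transcripts were measured by RNA-seq in CT26, a cultured line derived from a mouse colon tumour, with 4 libraries in all. They were chosen by symbol from a fixed list, with earlier results of these data known. The list holds 21 genes of glucose uptake and glycolysis, 8 genes that encode the hypoxia-inducible factors (HIF) and their regulators, and 14 other HIF targets. The deposited table holds all 43 symbols in 44 of its 55335 rows, since Aldoa stands there under a pair of Ensembl records. Of these 44 rows, 39 reached 1 FPKM (a fragment count divided by transcript length and by library size) in at least 2 libraries and were tested. None of the 39 had both libraries of 1 side of a comparison at 1 FPKM or more and both of the other side below it. The 5 that did not reach it were Slc2a3, Pfkfb3, Epas1, Egln3 and Adm.

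Glycolysis turns glucose into pyruvate in the cytosol, and many tumour cells run it at a high rate. In cells with enough oxygen the HIF alpha proteins are hydroxylated by prolyl hydroxylases, bound by the Vhl protein and degraded. In low oxygen they persist, pair with Arnt and bind short motifs near genes that raise glucose uptake, glycolysis, mitophagy and collagen modification. That control acts mainly on the protein, so the level of the Hif1a transcript alone does not report HIF activity.

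The titles divide the libraries by a stem, CT26_102 or CT26_CTL, and by a suffix, R or none, with 1 library for each combination. CT26_102_R and CT26_CTL_R carry the genotype label FOSL2-KO and the treatment label chemoradiotherapy, and are called the R libraries. CT26_102 and CT26_CTL carry the labels FOSL2-WT and PBS. Genotype and treatment therefore change together, and their effects cannot be told apart. The labels do not say what the stem CT26_102 or the suffix R stands for, give no dose or time, and do not say how many clones or cultures were used. The design text speaks of knockdown cells, and the treatment protocol names FOSL2-KO and chemoradiotherapy for all 4 libraries. The comparisons ask whether these genes differed between the labelled groups, stem by stem, and between the stems.

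The estimated depth was between 21.7 and 26.5 M reads per library, so 1 read in a transcript of 2 kilobases is worth between 0.0189 and 0.0230 FPKM. Fosl2, which encodes an AP-1 transcription factor and is the gene named in the genotype label, stood at 15.97 and 19.2 FPKM in the R libraries, against 9.35 and 12.7 FPKM in those without the suffix. Its transcript was higher in the libraries labelled FOSL2-KO, which goes against that label, although a transcript level does not show whether a protein is made. Groups are therefore called below by their labels or suffix, and no direction is read as an effect of FOSL2 loss. CT26 is labelled both as colon adenocarcinoma and, in the growth protocol, as mesenchymal; the epithelial genes Epcam and Cdx2 were at 0 in all libraries, and Cdh1 did not exceed 0.0202 FPKM. Krt18, a keratin, reached 39.6 and 76.5 FPKM in the R libraries, against 34.7 and 42.5 FPKM without the suffix. Krt8, another keratin, had 2.74 and 0.652 FPKM with R, against 3.82 and 0.461 FPKM. It was thus lower with R in stem CT26_102 and higher in stem CT26_CTL. The epithelial genes Krt19, Cldn7 and Vil1 did not exceed 0.1514 FPKM. The 6 myeloid markers summed to 120 and 91.0 FPKM in the R libraries, against 24.9 and 42.9 FPKM, almost all of it Cd68 and Lyz2. Cd68 was higher with R in both stems, whereas in stem CT26_CTL the other myeloid markers were lower with R, Lyz2 with 4.36 FPKM in CT26_CTL_R against 13.05 FPKM in CT26_CTL. The leukocyte gene Ptprc did not exceed 0.0880 FPKM in any library. Fibroblast markers summed to 107 and 81.0 FPKM in the R libraries, against 233 and 114 FPKM. The part of these markers in the results that follow was not tested, and in bulk RNA fewer cells of a type and less RNA per cell cannot be told apart.

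In the R libraries 12 of the 39 tested rows were lower and 0 were higher at an adjusted p under 0.05. Across all 11955 tested genes 5.32% were called lower and 7.57% higher in the same comparison. The 12 are 7 of the 20 glycolysis rows, 1 of the 6 HIF genes and regulators, and 4 of the 13 other targets. Their test was limma on log2(FPKM + 1) with labelled group and title stem as terms, Benjamini-Hochberg adjusted over all tested genes. Differences below are R minus none on that scale, with the standard error of this fit. The median difference was -0.37 over the 39 rows and 0.0043 over all tested genes. It was -0.40 for glycolysis, -0.25 for HIF genes and regulators, and -0.16 for other targets. In 27 of the 39 rows the R library was lower in both stems, against 38.2% of all tested genes. In 17 both R libraries lay below both others, against 21.1% of all tested genes.

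These calls rest on a fit with 1 residual degree of freedom and on the term for the stem. With the labelled group alone in the limma fit, 0 of the 39 members were called, 10 of them had an unadjusted p under 0.05, and 1 of all tested genes (0.00836%) was called. With no filter on low values limma called 0 of the 44 rows as well, and 19 of them had an unadjusted p under 0.05. With a library left out 0 members were called, and between 4 and 5 had an unadjusted p under 0.05.

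**Figure D1:**
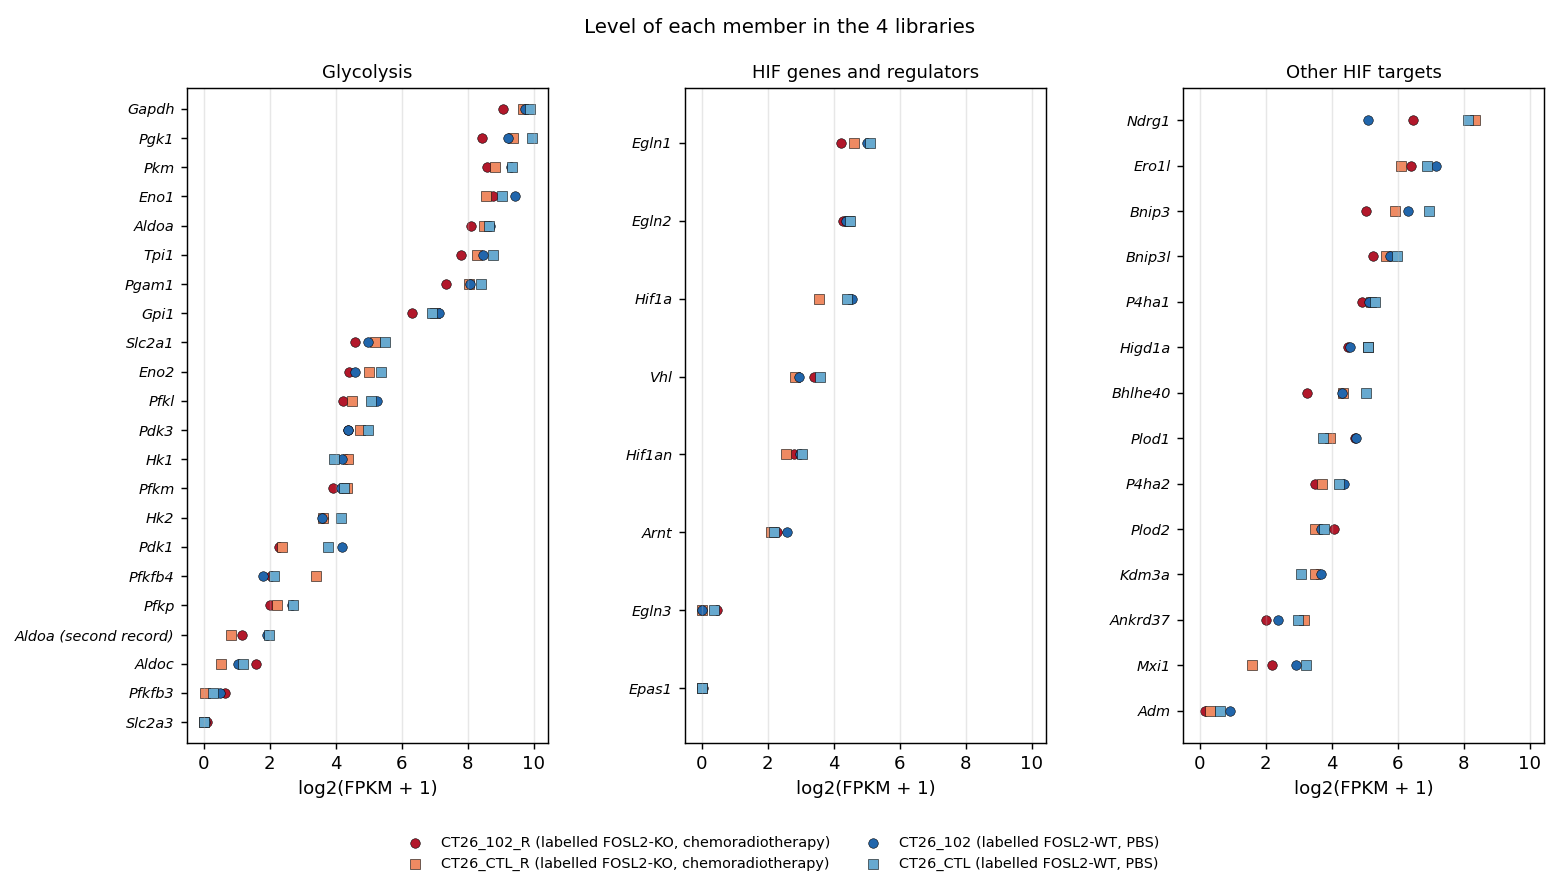
Level of each of the 44 rows in each library, as log2(FPKM + 1), with 1 point per library and rows grouped by role. Gapdh, Pgk1, Pkm and Eno1 are among the highest rows in every library, and Slc2a3, Epas1 and Egln3 lie near 0.

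The motif that HIF binds has the core ACGTG or GCGTG, and it stood in the promoter windows of many of these genes. Promoters of 37 members were found in a RefSeq table on build GRCm38, each from 250 bases before to 50 bases after the gene's start. At least 1 core on either strand was present in 28 of the 37 (75.7%). The same held for 43.8% of all promoters in the table. For the 8308 tested genes that have an entry it was 65.0%, by the first promoter listed for each. For members the promoter nearest the annotated start was used. The 37 include Pfkfb3, Egln3 and Adm, which were not tested and each held a core, so these shares rest on unlike sets. Of the 10 genes called lower that have an entry, 7 (70.0%) held a core, and of the 24 tested but not called lower, 18 (75.0%) did. The Aldoa window is that of its main record, which was not called. The cores occur by chance in many windows, and those within CACGTG also match the E-box that other factors bind. The stretches around the cores are shown for the 7 genes called lower, so that the letters behind these counts can be seen. They run 5′ to 3′ on the strand of the gene, and capitals mark the cores, written as CACGT or CACGC where they lie on the other strand.
Pdk1, chr2:71873131-71873165, plus strand: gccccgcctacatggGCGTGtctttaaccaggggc
Pfkl, chr10:78009887-78009921, minus strand: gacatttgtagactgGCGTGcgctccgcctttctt
Pgk1, chrX:106186935-106186988, plus strand: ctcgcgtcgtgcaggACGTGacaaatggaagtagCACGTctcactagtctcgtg
Eno1, chr4:150236463-150236497, plus strand: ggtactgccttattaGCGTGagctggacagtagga
Egln1, chr8:124949303-124949395, minus strand: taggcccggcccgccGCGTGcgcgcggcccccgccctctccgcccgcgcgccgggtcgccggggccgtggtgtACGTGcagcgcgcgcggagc
Bnip3, chr7:138909522-138909638, minus strand: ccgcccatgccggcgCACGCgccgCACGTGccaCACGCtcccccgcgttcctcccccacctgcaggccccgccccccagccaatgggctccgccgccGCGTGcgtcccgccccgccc
Ero1l, chr14:45318616-45318715, minus strand: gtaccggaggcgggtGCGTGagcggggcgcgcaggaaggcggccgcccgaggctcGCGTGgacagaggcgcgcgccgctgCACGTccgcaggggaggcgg
Bnip3 held the most cores of the 7, with 5, and its stretch includes CACGTG, which was counted as 2 overlapping cores, 1 on each strand. The Pfkl window held 1 core. Pdk1 and Eno1 held 2 each, of which the stretches show the one that lies wholly before the start. Tpi1, Pkm and Mxi1 were also called lower, and these letters were not in their windows; Bhlhe40 is named only.

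Of the 7 glycolysis rows that fell, 4 encode enzymes of the later steps, from triose phosphates to pyruvate: Tpi1, Pgk1, Eno1 and Pkm. Gapdh, Pgam1 and Eno2 act in the same steps and were not called. Pgk1, phosphoglycerate kinase and one of the enzymes that make ATP in this pathway, stood at 342 and 659 FPKM in CT26_102_R and CT26_CTL_R, against 597 and 982 FPKM in CT26_102 and CT26_CTL. It was 0.573 times as high with R in stem CT26_102 and 0.671 times in stem CT26_CTL, a difference of -0.69 ± 0.094 (adjusted p = 0.0252). The 2 groups overlap, because CT26_CTL_R lies above CT26_102, while within each stem the R library is lower. Pkm, which encodes muscle-type pyruvate kinase and catalyses the last step, had 380.0 and 451 FPKM in the R libraries, against 632 and 643 FPKM without the suffix. Its difference was -0.62 ± 0.095 (adjusted p = 0.0295), and the groups do not overlap. Pkm shares 767 exonic bases with Gm49759 on the same strand, which had 16.6 and 10.4 FPKM with R, against 39.1 and 20.6 FPKM. Tpi1, triose phosphate isomerase, had 220.1 and 308 FPKM with R, against 353 and 436 FPKM. Eno1, the main enolase, had 434 and 372 FPKM with R, against 695 and 521 FPKM. Neither gene's groups overlap, and the differences were -0.59 ± 0.096 for Tpi1 (adjusted p = 0.0326) and -0.58 ± 0.093 for Eno1 (adjusted p = 0.0313).

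Pdk1 had the largest difference among the 39 rows. It encodes a kinase that switches off pyruvate dehydrogenase and so limits the entry of pyruvate into mitochondria, and lies on chromosome 2 (71873224 to 71903858, GRCm38). It stood at 3.86 and 4.20 FPKM in CT26_102_R and CT26_CTL_R, against 17.4 and 12.5 FPKM in CT26_102 and CT26_CTL. Both R libraries lie far below both others, at 0.221 times the level in stem CT26_102 and 0.335 times in stem CT26_CTL. The difference was -1.65 ± 0.18 (adjusted p = 0.0198). Its relative Pdk3 had 19.6 and 25.4 FPKM with R, against 19.9 and 30.3 FPKM, a difference of -0.13 ± 0.13 that did not pass the test (adjusted p = 0.516). Pdk1 accordingly made up 16.4% and 14.2% of the summed Pdk1 and Pdk3 level in the R libraries, against 46.7% and 29.2%.

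Pfkl, the liver-type phosphofructokinase of the committed step, fell, while its relatives did not pass. It had 17.6 and 21.4 FPKM with R, against 36.9 and 32.9 FPKM, a difference of -0.81 ± 0.16 (adjusted p = 0.0408) with no overlap. The muscle-type Pfkm had 14.04 and 19.3 FPKM with R, against 16.9 and 18.1 FPKM, and did not pass (-0.08 ± 0.15, adjusted p = 0.716). The platelet-type Pfkp had 3.05 and 3.63 FPKM, against 5.36 and 5.54 FPKM, and just missed the threshold (-0.58 ± 0.14, adjusted p = 0.0572). Pfkp shares 748 exonic bases with Pitrm1 on the opposite strand, and whether counting used strand is not given in the sources used here. Pfkl made up 50.7% and 48.3% of the 3 together in the R libraries, against 62.4% and 58.1%.

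Aldoa, the aldolase, was called in 1 of its 2 records only. The shorter record (ENSMUSG00000114515, chromosome 7, 126800790 to 126809108, 799 exonic bases) had 1.26 and 0.761 FPKM with R, against 2.81 and 2.96 FPKM, a difference of -0.96 ± 0.17 (adjusted p = 0.0369). The main record (ENSMUSG00000030695) held nearly all of the level, with 274 and 359 FPKM with R, against 408 and 403 FPKM. Its difference was -0.37 ± 0.13 and did not pass (adjusted p = 0.105). The called record therefore holds a small share of the summed Aldoa level. With R it reached 1 FPKM in CT26_102_R only, so the side without R, where it was higher, carried it past the filter.

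The remaining 13 glycolysis rows that were tested did not pass. Pgam1, phosphoglycerate mutase, came closest, with 160 and 262 FPKM in the R libraries, against 268 and 338 FPKM (-0.56 ± 0.12, adjusted p = 0.0505). Gapdh, the highest member in 3 of the 4 libraries, had 541 and 820.1 FPKM with R, against 857 and 937 FPKM (-0.43 ± 0.13, adjusted p = 0.0854). Slc2a1, which encodes the glucose transporter GLUT1, had 23.3 and 35.8 FPKM with R, against 30.7 and 43.7 FPKM (-0.33 ± 0.12, adjusted p = 0.1201). The differences of Gpi1, Hk2, Eno2 and Aldoc lay between -0.38 and -0.038, with adjusted p values of 0.177 or more. Only Hk1 and Pfkfb4 had a positive difference among the 20, and neither passed. Hk1, a hexokinase, differed by 0.27 ± 0.14 (adjusted p = 0.240). Pfkfb4, a bifunctional enzyme that sets the level of an activator of phosphofructokinase, had 3.14 and 9.70 FPKM with R, against 2.49 and 3.36 FPKM (0.77 ± 0.27, adjusted p = 0.113). The high library for Pfkfb4 was CT26_CTL_R alone. Slc2a3, the neuronal-type glucose transporter, did not exceed 0.0799 FPKM, and Pfkfb3 did not exceed 0.562 FPKM.

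Several of these enzymes have near-identical copies in the mouse genome, and the authors' counting could split reads between gene and copy. These copies were looked up after the values had been seen. Eno1b, a copy of Eno1, had 535 and 526 FPKM in the R libraries, against 844 and 647 FPKM, more than Eno1 itself. Pgam1-ps2 had 124 and 154 FPKM with R, against 209 and 233 FPKM. Pgk1-rs7 had 46.6 and 84.6 FPKM with R, against 79.6 and 138 FPKM. In all 3 the R library was lower in both stems, as for the parent genes. Tpi-rs11 had 7.40 and 10.8 FPKM with R, against 9.42 and 9.71 FPKM. The absolute levels of Eno1, Pgam1, Pgk1 and Tpi1 are uncertain for this reason.

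**Figure D2:**
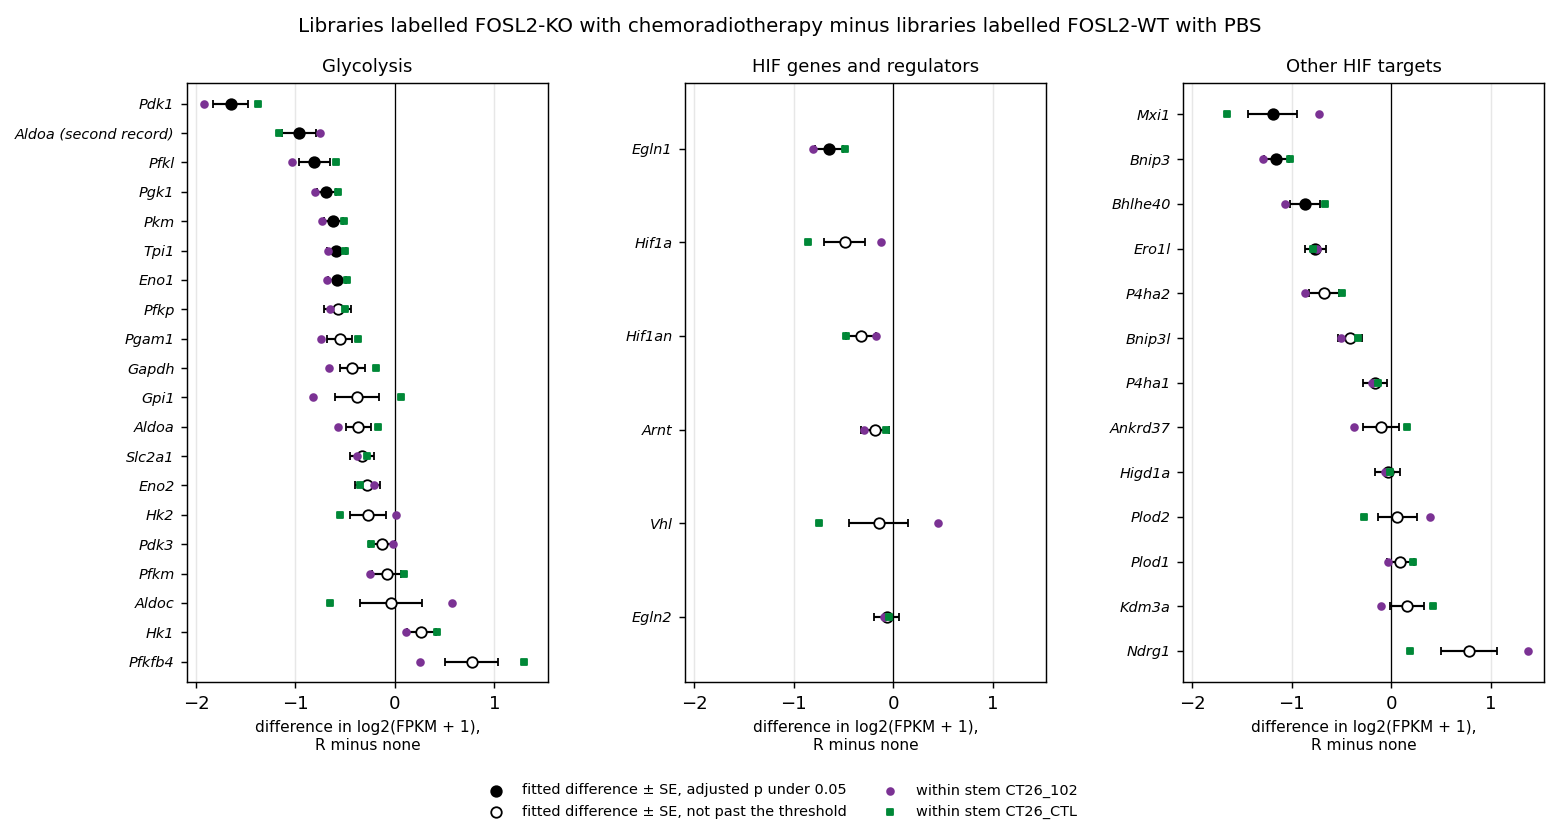
Difference in log2(FPKM + 1), libraries labelled FOSL2-KO with chemoradiotherapy (R) minus libraries labelled FOSL2-WT with PBS (none), for the 39 tested rows by role. Large circles are the fitted difference with its standard error, filled where the adjusted p is under 0.05, and small marks are the difference within each stem; Pdk1 lies lowest at -1.65 and the positive ends, Ndrg1 and Pfkfb4, are not filled.

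Summed over the 22 glycolysis rows, the level was 2567 and 3541 FPKM in CT26_102_R and CT26_CTL_R, against 4134 and 4602 FPKM in CT26_102 and CT26_CTL. That is 0.687% and 0.879% of all FPKM in the R libraries, against 1.19% and 1.22%. Both R libraries lie below both others, and CT26_102_R is the lowest. This sum is carried by a few very abundant enzymes and says little of Pdk1 or Pfkl. The 14 other targets summed to 368 and 639 FPKM with R, against 462 and 747 FPKM. That sum turns on Ndrg1. Without it, a sum added after seeing the data, the other 13 came to 281 and 320.0 FPKM with R, against 429 and 468 FPKM, and both R libraries lie below both others.

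**Figure D3:**
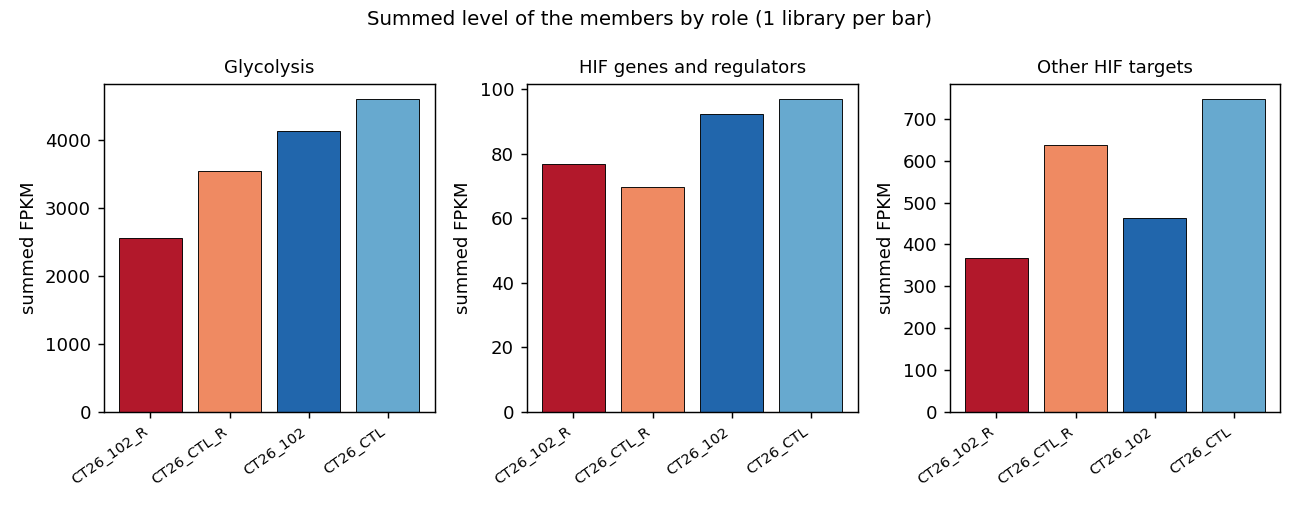
Summed FPKM of the rows of each role, with 1 bar per library and R libraries on the left. The glycolysis sum is lowest in CT26_102_R (2567 FPKM) and highest in CT26_CTL (4602 FPKM), and the other HIF targets are higher in both CT26_CTL libraries than in the CT26_102 libraries only with Ndrg1 in the sum.

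Among the HIF genes and their regulators, Egln1 alone was called. It encodes the prolyl hydroxylase known as the main oxygen sensor for HIF alpha and is itself a HIF target, and lies on chromosome 8 (124908587 to 124949324). Egln1 had 17.5 and 23.5 FPKM in the R libraries, against 31.4 and 33.2 FPKM, a difference of -0.64 ± 0.14 (adjusted p = 0.0490) with no overlap. That p is just inside the threshold, and 4 of 8 alternative settings that kept both terms and a filter ended the call. Egln2, a related hydroxylase, had 18.6 and 21.1 FPKM with R, against 19.9 and 21.7 FPKM (-0.07 ± 0.12, adjusted p = 0.733). Egln1 made up 48.0% and 52.7% of the summed level of the 3 hydroxylases with R, against 61.3% and 60.1%. Egln3, the third of them and a gene usually strongly induced by HIF, was at 0.388 and 0 FPKM with R, against 0 and 0.299 FPKM.

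Hif1a, which encodes the main HIF alpha subunit, had 20.8 and 10.7 FPKM in CT26_102_R and CT26_CTL_R, against 22.7 and 20.2 FPKM in CT26_102 and CT26_CTL. It did not pass (-0.49 ± 0.21, adjusted p = 0.162), and the low library was CT26_CTL_R alone. Hif1a shares 148 exonic bases with Gm49321 on the same strand, which had 3.196 and 0 FPKM with R, against 0 and 0.623 FPKM. The part of this overlap in the Hif1a values was not tested. Epas1, which encodes the other well-known HIF alpha subunit, did not exceed 0.0341 FPKM in any library. Arnt, the shared partner of the alpha subunits, had 3.896 and 3.31 FPKM with R, against 4.98 and 3.54 FPKM (-0.18 ± 0.14, adjusted p = 0.403). Hif1an, an asparagine hydroxylase that blocks HIF activity, had 6.001 and 4.90 FPKM with R, against 6.86 and 7.19 FPKM (-0.32 ± 0.15, adjusted p = 0.188). Vhl, the substrate receptor of the ligase that marks HIF alpha for degradation, had 9.54 and 6.10 FPKM with R, against 6.71 and 10.9 FPKM. Its fitted difference was -0.14 ± 0.30 (adjusted p = 0.753), made of opposite values in the stems, 0.45 in CT26_102 and -0.74 in CT26_CTL.

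Of the other HIF targets, Bnip3, Mxi1, Bhlhe40 and Ero1l fell. Bnip3, a mitochondrial outer membrane protein that recruits the autophagy machinery, had 31.6 and 59.2 FPKM in the R libraries, against 78.9 and 121 FPKM. Its R libraries were 0.401 and 0.490 times as high as their partners in stems CT26_102 and CT26_CTL, a difference of -1.15 ± 0.13 (adjusted p = 0.0198) with no overlap. Its relative Bnip3l had 37.3 and 48.5 FPKM with R, against 53.4 and 61.3 FPKM, and did not pass (-0.42 ± 0.12, adjusted p = 0.0781). Bnip3 made up 45.9% and 55.0% of the pair's summed level with R, against 59.6% and 66.4%.

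Ero1l, the oxidase that drives disulfide bond formation in the endoplasmic reticulum, had 84.0 and 67.2 FPKM in the R libraries, against 141 and 116 FPKM. Within the stems the R library was 0.594 and 0.578 times as high, the most even change among the called members, with a difference of -0.76 ± 0.10 (adjusted p = 0.0252). Mxi1, a MAX partner that opposes MYC, had 3.60 and 1.97 FPKM with R, against 6.59 and 8.36 FPKM (-1.19 ± 0.25, adjusted p = 0.0452). Both of these genes' groups stand apart. Bhlhe40, a basic helix-loop-helix repressor, had 8.53 and 19.4 FPKM with R, against 18.9 and 31.4 FPKM (-0.87 ± 0.15, adjusted p = 0.0357). Its groups overlap through CT26_CTL_R and CT26_102, although R was lower in each stem.

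The other 9 tested targets did not pass. P4ha2, an alpha subunit of collagen prolyl hydroxylase, lay just outside, with 10.3 and 12.1 FPKM with R, against 19.6 and 17.4 FPKM (-0.68 ± 0.15, adjusted p = 0.0503). Its counterpart P4ha1 had 29.4 and 35.5 FPKM with R, against 33.8 and 38.9 FPKM (-0.16 ± 0.12, adjusted p = 0.366). Ndrg1, a stress-responsive gene often used as a hypoxia marker, was the member with the most positive difference and did not pass (0.78 ± 0.28, adjusted p = 0.1198). It had 86.8 and 319 FPKM in CT26_102_R and CT26_CTL_R, against 32.8 and 279 FPKM in CT26_102 and CT26_CTL, so that its levels differed more by stem than by labelled group. Adm, which encodes the peptide adrenomedullin, was at 0.119 and 0.229 FPKM with R, against 0.895 and 0.542 FPKM, below the filter. The differences of Ankrd37, Plod1, Plod2, Kdm3a and Higd1a lay between -0.10 and 0.16, with adjusted p values of 0.544 or more.

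The calls of Pdk1, Bnip3, Bhlhe40 and Ero1l, 4 of the 12, held in all 8 alternative settings that kept both terms and a filter. Their adjusted p values over those settings reached 0.0319, 0.0319, 0.0492 and 0.0420. The other 8 calls each ended in at least 1 of these settings. Under 3 other scalings of the libraries the count of members called lower was 15 (upper quartile), 11 (median of ratios) and 15 (equal summed FPKM). Over all tested genes the called ones were 905 higher and 636 lower as deposited, but 937 and 1011 with upper-quartile scaling and 689 and 958 with equal sums.

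Further genes of the same pathways were read in lists. For each list the shares to compare are those over all tested genes, 5.32% called lower and 7.57% called higher with R. Of 31 other hypoxia-responsive genes 22 were tested, 4 fell and 2 rose, with a median difference of -0.31. Car9, the carbonic anhydrase often used to mark hypoxic tumour cells, fell, with 7.40 and 0.727 FPKM with R, against 18.4 and 1.81 FPKM (-0.96 ± 0.18, adjusted p = 0.0385). Gbe1, the glycogen branching enzyme, fell as well (-0.66 ± 0.13, adjusted p = 0.0413). Fam162a and Pgm2 were the other genes that fell. Ddit4, which restrains mTOR signalling and also responds to stress other than low oxygen, rose, with 85.7 and 78.9 FPKM with R, against 34.5 and 36.7 FPKM (1.19 ± 0.12, adjusted p = 0.0187). Errfi1, a feedback inhibitor of EGF receptors, rose too (0.62 ± 0.12, adjusted p = 0.0393).

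In the lactate genes, Ldha and the transporters Slc16a1 and Slc16a3 fell, all 3 that were tested of 4. Ldha had 412 and 590 FPKM with R, against 709 and 844 FPKM (-0.65 ± 0.098, adjusted p = 0.0292). Of the 10 genes of the pentose phosphate pathway 2 fell and 0 rose. G6pdx, which encodes its first enzyme, had 17.0 and 17.98 FPKM with R, against 27.9 and 32.8 FPKM (-0.76 ± 0.13, adjusted p = 0.0337), and the other was Tkt. Of 9 tested genes of pyruvate entry into mitochondria 0 passed, with 2 at an unadjusted p under 0.05. Of 5 tested isozymes of glycolysis outside the 43 genes, limma called 0, and at an unadjusted p under 0.05 there were also 0. Slc16a3 and Car9 stood far higher in the CT26_102 libraries, as given below for the stems.

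Between the stems, 10 of the 39 rows were lower in CT26_102 than in CT26_CTL and 1 was higher. Across all tested genes 9.44% were called lower and 12.5% higher, 21.9% in all. The count is 5 of 20 glycolysis rows, all lower, and 6 of 13 other targets, 5 of them lower. Of the 6 HIF genes and regulators 0 were called and 0 had an unadjusted p under 0.05. The median difference, CT26_102 minus CT26_CTL, was -0.19 over the 39 rows and 0.054 over all tested genes. Both CT26_102 libraries lay below both CT26_CTL libraries in 13 of the 39 rows and above them in 4. Among all 11955 tested genes they lay below in 2504 and above in 3344. Stems that do not overlap were thus common among all tested genes, and the lack of overlap does not set a member apart. With the stem alone in the limma fit 0 members were called, 5 had an unadjusted p under 0.05, and 34 of all genes (0.284%) were called. With no filter 0 of the 44 rows were called and 15 had an unadjusted p under 0.05. The called genes were 1494 higher and 1129 lower as deposited, 1189 and 1312 with median-of-ratios scaling, 2082 and 834 with equal sums, 1047 and 1199 with the trend on gene length removed, and 1061 and 1121 with a filter of 5 FPKM.

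Ndrg1 had by far the largest stem difference of the members. The CT26_102 libraries had 32.8 FPKM without and 86.8 FPKM with R, against 279 FPKM without and 319 FPKM with R in the CT26_CTL libraries. The difference was -2.46 ± 0.28 (adjusted p = 0.0114), so CT26_CTL was 8.503 times as high as CT26_102 without the suffix and 3.67 times with it. Every CT26_CTL library lies far above every CT26_102 library.

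Bnip3, Bhlhe40, Pgk1 and Tpi1 were called in both comparisons, and in each of them CT26_102_R was the lowest library and CT26_CTL the highest. Bnip3 had 78.9 and 31.6 FPKM in the CT26_102 libraries, against 121 and 59.2 FPKM in the CT26_CTL libraries, in the order without and with R (-0.75 ± 0.13, adjusted p = 0.0220). Bhlhe40 had 18.9 and 8.53 FPKM, against 31.4 and 19.4 FPKM (-0.90 ± 0.15, adjusted p = 0.0221). The stems overlap for Bnip3, through CT26_102 and CT26_CTL_R, and for Bhlhe40 they stand narrowly apart. Pgk1 had 597 and 342 FPKM in the CT26_102 libraries, against 982 and 659 FPKM, with no overlap (-0.83 ± 0.094, adjusted p = 0.0108). The difference of Tpi1 was smaller (-0.39 ± 0.096, adjusted p = 0.0456), and 5 of 8 alternative settings ended that call.

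The called members Slc2a1, Eno2 and Higd1a did not overlap between stems, and none of them passed the test with R. Slc2a1 had 30.7 and 23.3 FPKM in the CT26_102 libraries, against 43.7 and 35.8 FPKM in the CT26_CTL libraries (-0.55 ± 0.12, adjusted p = 0.0377). Eno2, the neuronal enolase, had 23.2 and 19.97 FPKM, against 40.3 and 31.4 FPKM (-0.70 ± 0.12, adjusted p = 0.0242). Higd1a, a mitochondrial protein of the respiratory chain, had 22.5 and 21.6 FPKM, against 33.4 and 33.1 FPKM (-0.57 ± 0.12, adjusted p = 0.0345). Pairs of libraries from 1 stem lie close together for Higd1a, whichever suffix they carry. Ankrd37, an ankyrin repeat protein, had 4.20 and 3.02 FPKM, against 6.92 and 7.86 FPKM (-0.87 ± 0.18, adjusted p = 0.0321), again without overlap. It shares exonic bases with Ufsp2 and Lrp2bp on the opposite strand. Pgam1 had 268 and 160 FPKM, against 338 and 262 FPKM (-0.52 ± 0.12, adjusted p = 0.0438), and 4 of 8 alternative settings ended its call.

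Plod1, a lysyl hydroxylase that modifies collagen, was the member that was higher in CT26_102. It had 25.7 and 25.1 FPKM in the CT26_102 libraries, against 12.3 and 14.5 FPKM in the CT26_CTL libraries (0.88 ± 0.14, adjusted p = 0.0189). Of the 3 collagen genes in the fibroblast marker list, Col1a1 and Col3a1 were higher there too and Col1a2 did not pass (0.064 ± 0.17, adjusted p = 0.803). Col3a1 had 53.0 and 19.8 FPKM in the CT26_102 libraries, against 0.568 and 0.144 FPKM. Which cells these collagen transcripts come from, and whether their levels are linked to that of Plod1, was not tested. Plod2, its relative, had 11.7 and 15.6 FPKM, against 12.6 and 10.2 FPKM, and did not pass. The stem differences of all 28 uncalled rows lay between -0.85 for Pfkfb4 (adjusted p = 0.0815) and 0.53 for Hif1a (adjusted p = 0.125).

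**Figure D4:**
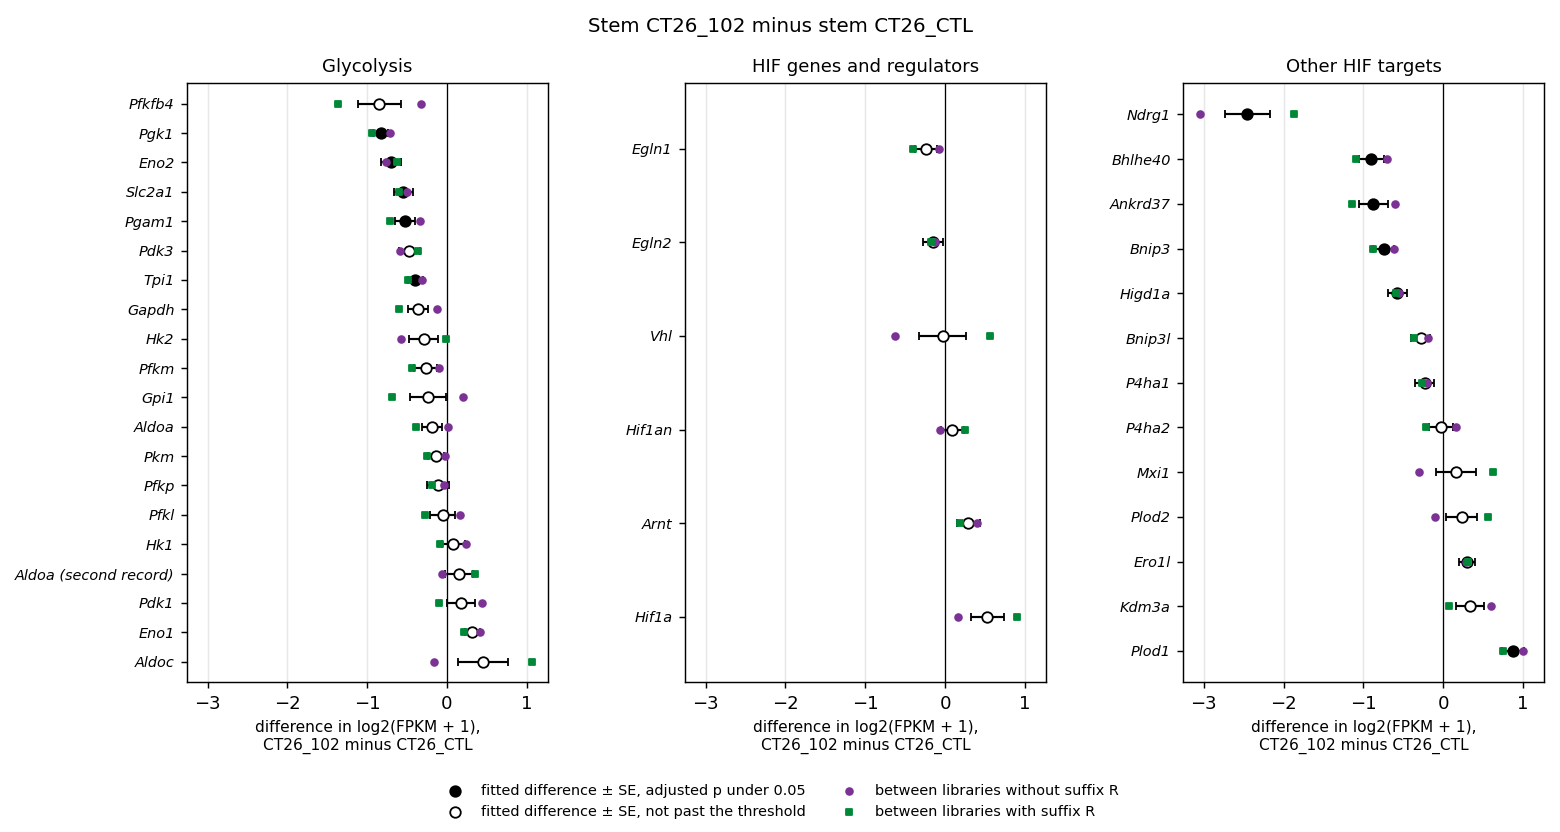
Difference in log2(FPKM + 1), CT26_102 minus CT26_CTL, for the 39 tested rows by role. Large circles are the fitted difference with its standard error, filled where the adjusted p is under 0.05. Small marks are the same stem difference, taken among the libraries with the suffix R and among those without it. Ndrg1 lies far to the left at -2.46 and Plod1 is the filled circle on the right at 0.88.

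The related lists did not share one direction between the stems. Of the 22 further hypoxia-responsive genes tested 2 were lower in CT26_102 (Fam162a, Mif) and 4 were higher (Car9, Zfp395, Gbe1, Car12). Over all tested genes 9.44% were called lower and 12.5% higher between the stems. Car9 had 18.4 and 7.40 FPKM in the CT26_102 libraries, against 1.81 and 0.727 FPKM in the CT26_CTL libraries (2.54 ± 0.18, adjusted p = 0.0047). Slc16a3, a lactate exporter, had 12.6 and 7.62 FPKM, against 1.99 and 0.764 FPKM (2.24 ± 0.14, adjusted p = 0.0039). Both are known HIF targets. They were called higher in the stem where Ndrg1 and Bnip3 were called lower and Plod1 was called higher. For Bnip3 the stems overlap. Of the pentose phosphate genes H6pd and Pgd were higher in CT26_102, and of the isozymes Pfkfb2 and Pgam2 were.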

How the data were processed

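Per the labels, total RNA of 4 CT26 libraries was made into mRNA-seq libraries. The authors deposited FPKM per Ensembl gene, computed with an aligner, a quantification tool and a strand setting not given in the sources used here. GRCm38 and mm10 are the builds in the submitters' processing notes. Depth was estimated from steps between low FPKM values; between 33.7% and 35.6% of values under 5 reads came out whole within 0.02 reads, so counts were not recovered and no intervals are given.

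Genes with at least 1 FPKM in at least 2 libraries were kept. Values were analysed as log2(FPKM + 1), which understates changes of low genes, with limma 3.58.1 in R 4.3.3 (lmFit, eBayes with a mean-variance trend). The fit held labelled group and title stem, had 1 residual degree of freedom (their interaction) and 4.01 prior degrees of freedom. P-values are two-sided and adjusted by the Benjamini-Hochberg method over 11955 genes, with a threshold of 0.05. With 2 libraries against 2, 0.333 is the smallest p of an exact permutation test, which was left out. The difference of the labelled group difference between stems has no test. The labels name no separate cultures, so the p-values cover only differences among these samples, possibly technical ones.

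Alternatives were the labelled group or stem alone, pseudocounts of 0.1 and 0.01, no filter, a filter of 5 FPKM, other scalings, no trend, gene length removed, and each library left out; scaling to equal summed FPKM was added after seeing the data. Values per library are given for members past the threshold in the labelled group comparison, for the 10 called members with the largest stem difference, for members that moved oppositely in the stems, and for the HIF genes. Other members named with values came close to the threshold or are relatives of called members, and were chosen after their values were seen. Members and lists were chosen with earlier results of these data known. Positions are from GENCODE M21 and promoters from RefSeq, both on GRCm38. No protein sequences are shown.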

Additional observations from a re-analysis of the deposited data

Results flagged for a closer look

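The members Aldoc, Vhl and Plod2 moved in opposite directions with R in the stems, by at least 0.25 on the log2(FPKM + 1) scale each way, and these differences between stems were not tested, since 4 libraries leave no degree of freedom for them. Aldoc, the brain-type aldolase, had 2.04 FPKM in CT26_102_R against 1.04 FPKM in CT26_102, and 0.452 FPKM in CT26_CTL_R against 1.28 FPKM in CT26_CTL; its R minus none difference was 1.23 higher in stem CT26_102. All 4 of these values are low. Vhl, of the ligase that targets HIF alpha, had 9.54 against 6.71 FPKM in stem CT26_102 and 6.10 against 10.9 FPKM in stem CT26_CTL, R first in each, a gap of 1.19 between the stems. Plod2, a lysyl hydroxylase, had 15.6 against 11.7 FPKM in stem CT26_102 and 10.2 against 12.6 FPKM in stem CT26_CTL, R first in each, a gap of 0.669.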

How the results depend on the processing

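With both terms and a filter kept, the members called with R stayed between 5 and 15, against 12 as reported. Without the stem term (no replicate block; the stem pairs libraries by title), calls fell to 1 gene of 1541 for the labelled group and, without the group term, to 34 of 2623 for the stem, with 0 members and 0 in each role in both. With no filter there were 0 calls of genes and of members in both comparisons. With 1 library left out and 1 term, calls numbered 2 to 11 genes for the labelled group and 0 to 16 for the stem, and 0 to 0 members in each role; the lone library is then assumed to vary like the others. With a pseudocount of 0.01, 895 genes were called with R. Without the mean-variance trend 5 members and 2 of 7 glycolysis rows were called with R. Egln1, the only called HIF gene, was lost (0) with pseudocounts of 0.1 and 0.01, median-of-ratios scaling and no trend. Stem calls in glycolysis went to 3 of 5 with a pseudocount of 0.01, no trend, gene length removed and equal sums. With equal sums the R differences of Plod1 (-0.00072) and Plod2 (-0.031) changed sign. With a library left out, 14 uncalled members changed sign: Hk2 (-0.56 to 0.016), Pfkm (-0.30 to 0.14), Aldoc (-0.57 to 0.49), Eno2 (-0.66 to 0.11), Pdk3 (-0.42 to 0.16), Arnt (-0.38 to 0.018), Vhl (-0.46 to 0.17), Egln2 (-0.15 to 0.023), Ndrg1 (-0.74 to 2.31), Ankrd37 (-0.67 to 0.47), Plod1 (-0.41 to 0.60), Plod2 (-0.22 to 0.34), Kdm3a (-0.14 to 0.46) and Higd1a (-0.33 to 0.26). The 12 called members kept their sign in each of these settings. The fits with a library left out hold 1 term and unequal numbers from each stem, so a stem difference enters their R difference. Arnt, Egln2, Eno2, Pdk3 and Higd1a changed sign there although R was lower in both stems. Ndrg1 did so although R was higher in both stems. The causes were not tested beyond the fewer samples and terms of these fits. By the estimated depth, members near 0 such as Epas1 rest on few reads. How far depth limits the other members under about 1 FPKM was not tested.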

Other observations

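Gapdh, often used as a reference gene when transcripts are measured by PCR, was not level across these libraries. It was 0.631 times as high in CT26_102_R as in CT26_102 and 0.876 times in CT26_CTL_R as in CT26_CTL, a difference of -0.43 ± 0.13 that did not pass the test (limma, adjusted p = 0.0854). The hexokinase shares stood apart in CT26_CTL alone. Hk2 made up 37.4% and 36.2% of the summed Hk1 and Hk2 level in CT26_102_R and CT26_CTL_R, against 39.1% and 53.9% in CT26_102 and CT26_CTL, while the sum of both was 29.9 and 31.1 FPKM, against 28.4 and 31.5 FPKM. Neither Hk1 (adjusted p = 0.240) nor Hk2 (adjusted p = 0.323) passed the limma test.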
